A study of Mus musculus with 3 samples.

Results

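The genes Lmx1b, En1 and Wnt7a form the core circuit that separates the back of the limb from the palm side, and 2 of these 3 genes had summits of the hindlimb factor Tbx4 around them. Lmx1b had 7 Tbx4 summits and 1 Hoxc10 summit, En1 had 5 Tbx4 summits and 0 Hoxc10 summits, and Wnt7a had 0 of either. No Tbx4 summit in these regions lay within 200 bp of a Hoxc10 summit. The genes were taken by name, 3 of 21883 protein-coding genes in the RefSeq table of GRCm38.p6, the same build as mm10. A summit was counted for a gene when it lay inside the gene or between it and the next protein-coding gene on either side, up to 1 Mb away, and this stretch is called the domain below. A summit between 2 genes therefore counts for both. The rule gathered 12 of the 4780 Tbx4 summits and 1 of the 1614 Hoxc10 summits. Over all protein-coding genes, 17.2% had a Tbx4 summit in the domain and 6.83% a Hoxc10 summit. Among genes with domains at least as long as that of Wnt7a, the shortest of the 3, these shares were 41.8% and 23.3%. With 3 genes, 2 with a Tbx4 summit is not set apart from such shares.

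The summits came from ChIP-seq (chromatin immunoprecipitation with sequencing) of hindlimb buds. The embryos were wild type, of the mouse strain CD1, and were collected at stage e11.5, when the buds are being patterned. The Tbx4 ChIP used a homemade antibody, labelled 1695a, and the Hoxc10 ChIP used the Abcam antibody ab153904. Each is 1 sample with 1 deposited peak list, and another ChIP, with a Santa Cruz Hoxc10 antibody, was not analysed here. There are no replicates, so no difference between the factors or between the genes was tested, and every count below is a description of these 2 lists. The labels name no pooling of embryos, no control library and no read depth. The score beside each summit is the authors' own, given by the peak caller MACS2 on a −log10 scale, and it is read here only within 1 list.

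The circuit works between 2 tissue layers. Wnt7a is a secreted signal of the dorsal ectoderm, and it switches on Lmx1b, a LIM-homeodomain factor, in the mesenchyme beneath. Lmx1b gives that mesenchyme its dorsal character, and mouse limbs without it develop ventral structures on both sides. En1, a homeodomain repressor induced by BMP signals in the ventral ectoderm, keeps Wnt7a out of that side. Tbx4 and Hoxc10 are known as factors of hindlimb mesenchyme. The buds were processed whole, so binding in a small share of the cells and weak binding in many cells cannot be told apart here, and neither can the layer that a summit came from.

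No summit of either factor fell at the annotated start of any of the 3 genes. The starts are shown for that reason, as the RefSeq sequence (GRCm38.p6) just before the gene, 5′ to 3′ in the direction of transcription, with CG dinucleotides in capitals. The Lmx1b stretch is chr2:33641209-33641348 on the minus strand and ends where the gene span begins. The En1 stretch is chr1:120602237-120602486 on the plus strand, and the Wnt7a stretch is chr6:91411354-91411603 on the minus strand.
Lmx1b: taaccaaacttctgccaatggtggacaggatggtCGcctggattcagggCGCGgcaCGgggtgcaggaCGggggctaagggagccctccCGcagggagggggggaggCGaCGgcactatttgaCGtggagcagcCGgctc
En1: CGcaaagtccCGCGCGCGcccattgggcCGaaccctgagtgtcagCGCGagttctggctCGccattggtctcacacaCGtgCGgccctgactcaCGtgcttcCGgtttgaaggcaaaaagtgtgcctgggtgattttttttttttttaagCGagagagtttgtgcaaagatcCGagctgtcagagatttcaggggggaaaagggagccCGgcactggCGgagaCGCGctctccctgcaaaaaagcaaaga
Wnt7a: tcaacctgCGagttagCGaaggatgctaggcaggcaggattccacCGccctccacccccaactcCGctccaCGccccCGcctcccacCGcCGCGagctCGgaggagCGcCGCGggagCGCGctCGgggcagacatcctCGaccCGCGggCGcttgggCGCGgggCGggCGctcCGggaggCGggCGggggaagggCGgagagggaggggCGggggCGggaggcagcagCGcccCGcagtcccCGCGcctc

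All 3 starts lie in CG-rich sequence. In the RefSeq window from 250 bases before to 50 bases after the start, the Lmx1b promoter held 24 CG dinucleotides, that of En1 23 and that of Wnt7a 42, against a median of 7 over 32851 such windows. For Lmx1b this annotated start is at 33641098, inside the gene span. Distances from its 5′ end further below use the end of that span, at 33641208. The nearest Tbx4 summit was 9.44 kb from the annotated start of Lmx1b, 23.4 kb from that of En1 and 138 kb from that of Wnt7a. The nearest Hoxc10 summits were 46.2, 793 and 2256 kb from the same starts. A Tbx4 summit inside the window was seen in 0.88% of all windows and a Hoxc10 summit in 0.128%, so a promoter without a summit is the usual case in these lists. The T-box core GGTGTGA, searched on both strands, was in none of the 3 windows and in 3.98% of all of them. The Hox letters TCGTAAA and TCATAAA were also in none of the 3, and in 0.597% and 3.71% of all windows. This says only that these letters are not in these windows.

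**Figure D1:**
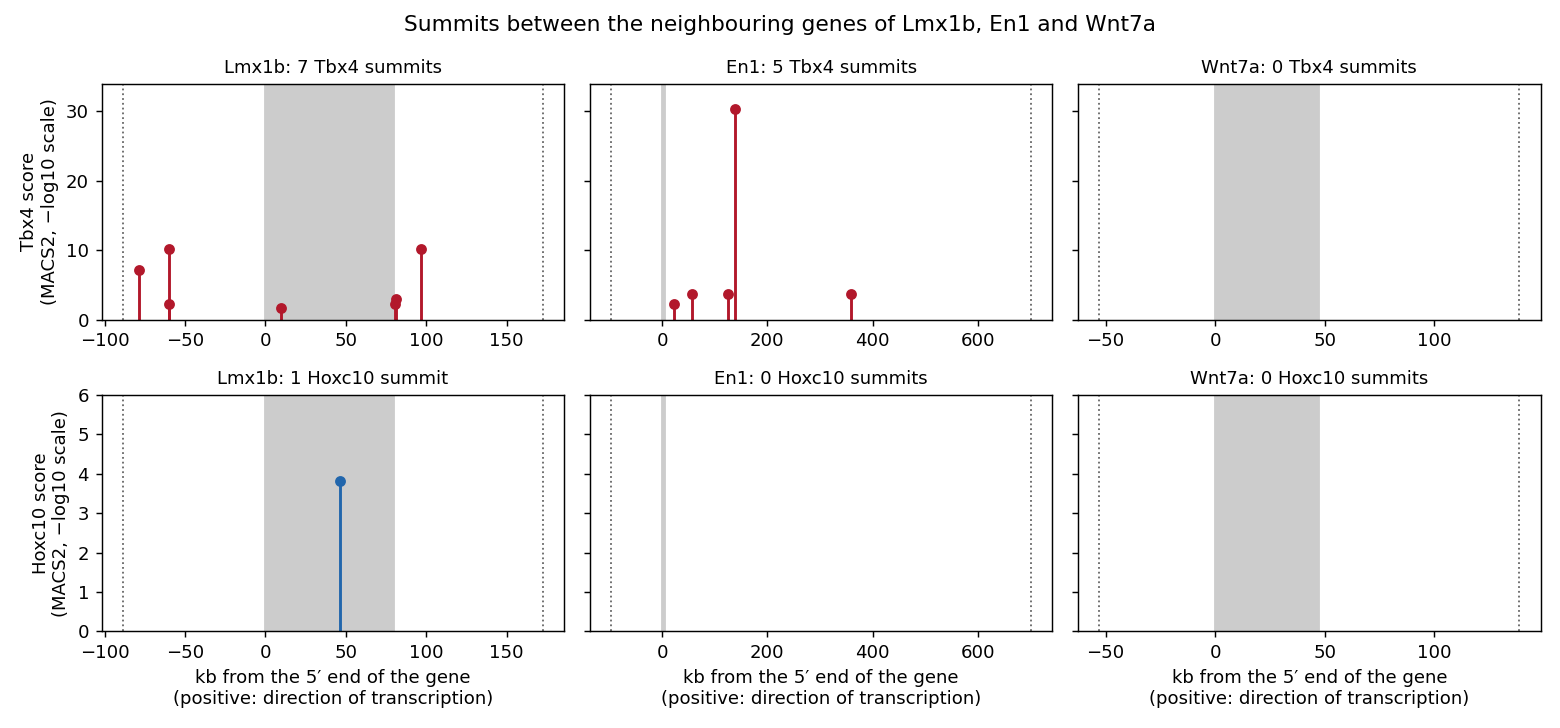
Summits in the domains of Lmx1b, En1 and Wnt7a. Each stem is 1 summit of Tbx4 (upper row) or Hoxc10 (lower row), placed by its distance in kb from the 5′ end of the gene and drawn as high as its MACS2 score (−log10 scale). Grey marks the gene and dotted lines the ends of the domain. Lmx1b has Tbx4 stems on both sides, En1 only past its 3′ end with 1 stem of 30.28, and Wnt7a has none.

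Lmx1b held the most summits of the 3 genes. It spans 33560965 to 33641208 of chromosome 2 on the minus strand, and its domain of 261 kb reaches to Mvb12b on the upstream side and to Zbtb43 on the downstream side. At least 1 Tbx4 summit was found in the domains of 17.2% of all protein-coding genes, and at least 7 in 0.516% (113 genes), which is 3.05% of the 3708 genes whose domain is at least as long as that of Lmx1b. Of those 113 genes Lmx1b had the shortest domain, followed by Gsc with 273 kb, and their median was 1035 kb. Domains that reached at most 500 kb from a gene, or stopped 1 kb before a neighbour, could not change that place while Lmx1b kept 7 summits. A flank cut at 500 kb is still longer than the whole Lmx1b domain, and 1 kb at each end is less than the lead over Gsc. These settings are therefore no check of the order. Lmx1b leaves this set of genes in other settings, with 3 Tbx4 summits at or above the median score of the list and 4 when each summit goes to its nearest gene only. The Lmx1b domain held 2.68 Tbx4 summits per 100 kb, against 0.194 over the whole list. Some shorter domains were denser, such as that of Adhfe1 with 3 Tbx4 summits in 53.8 kb. The share of genes that reach 2.68 was not counted.

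The Tbx4 summits of Lmx1b fell into 3 groups by place. Upstream of the gene, towards Mvb12b, summits lay at 33700897, 33701472 and 33719525, which is 59.7, 60.3 and 78.3 kb from the 5′ end of the gene. Their scores were 2.26, 10.21 and 7.14. The nearer 2 of them are 575 bp apart. Of all Tbx4 summits 5.13% had another Tbx4 summit within 1 kb. The farthest of these upstream summits lies 575 bp beyond the upper end of the long noncoding RNA gene 9430024E24Rik, which spans 33714606 to 33718950. Limb enhancers of Lmx1b that are bound by the Lmx1b protein itself are known upstream of the gene. Their positions were not used here.

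A single Tbx4 summit, at 33631659, lay inside Lmx1b, 9.55 kb from its 5′ end. It scored 1.63, and 99.9% of the Tbx4 list scored at least as high, so it stands at the bottom of the list. Whether it is in an exon or an intron cannot be told from a table of gene spans.

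The downstream side held 3 more. A close pair at 33560021 and 33560478, 457 bp apart, lay 0.944 and 0.487 kb past the 3′ end of Lmx1b with scores of 2.94 and 2.26. Farther out, 16.5 kb from the gene, a summit at 33544495 scored 10.21 and fell inside the long noncoding RNA gene Gm33642. The highest scores of Lmx1b were thus equal on its 2 sides, 10.21 upstream and 10.21 downstream, a value that 15.7% of the list reached. The 4780 Tbx4 summits take only 113 distinct scores, so ties are common and this one says little about equal binding. The 7 scores had a median of 2.94, below the list's median of 3.67, and 3 of the 7 were at or above that median.

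The only Hoxc10 summit among the 3 genes was inside Lmx1b, at 33594911, 46.3 kb from the 5′ end. Its score of 3.83 was reached by 89.5% of the Hoxc10 list. The nearest Tbx4 summit was 34.4 kb away, at the 3′ end of the gene. A Hoxc10 summit was found in the domains of 6.83% of all protein-coding genes, and in 27.3% of the 3708 genes whose domain is at least as long as that of Lmx1b. Among the 113 genes with 7 or more Tbx4 summits, 24.8% had no co-bound pair, as here.

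**Figure D2:**
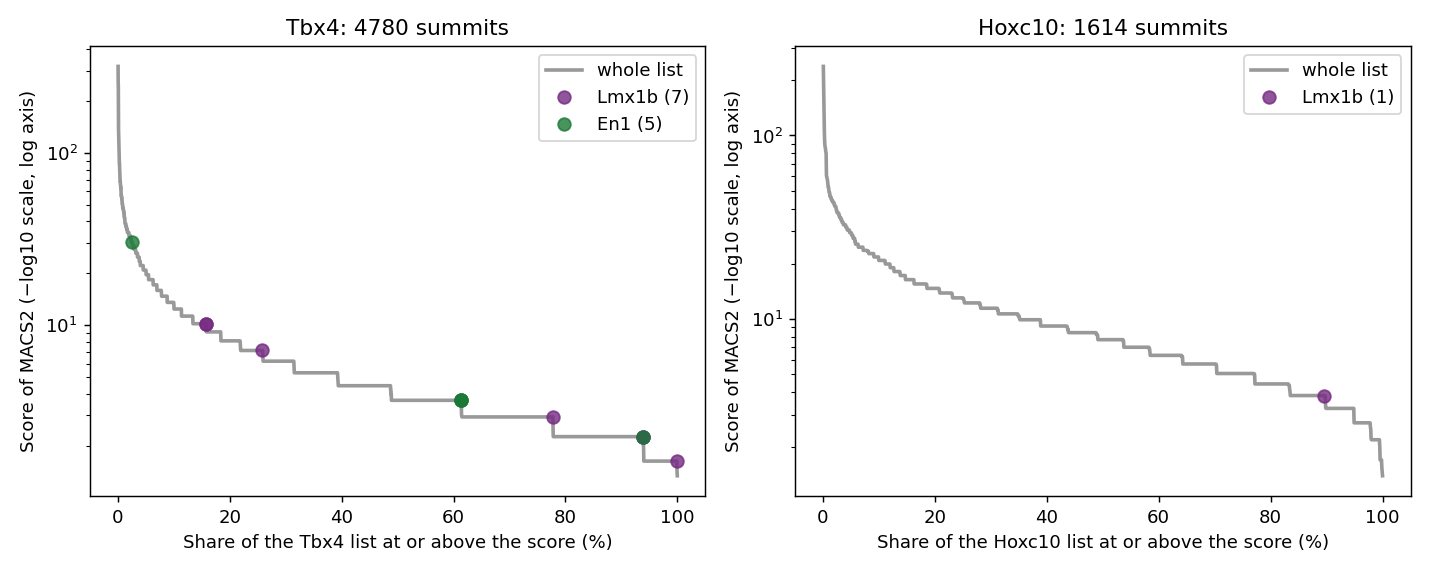
Scores of the summits at Lmx1b (purple) and En1 (green) within their own list. The horizontal axis is the share of the list (%) with at least that score and the vertical axis the MACS2 score (−log10 scale, drawn on a log axis). The grey line is the whole list, and tied scores lie on top of each other. The En1 summit of 30.28 is the only one of the 13 summits in the upper 10% of its list.

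En1 had summits of Tbx4 on 1 side only. The gene spans 120602487 to 120607991 of chromosome 1 on the plus strand, and its domain of 799 kb runs from Marco to Insig2. All 5 Tbx4 summits lay past the 3′ end of the gene, on a flank of 696 kb, and none on the 5′ flank of 97.5 kb. The first, at 120625917, was 17.9 kb from the gene and scored 2.26. Summits at 120659790 and 120727673 followed at 51.8 and 119.7 kb, each with a score of 3.67. The strongest, at 120741552, was 133.6 kb from the gene and scored 30.28, a value that 2.57% of the Tbx4 list reached. The last, at 120962130, was 354 kb away and scored 3.67.

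Of these, 4 lay inside 2610027F03Rik, a long noncoding RNA gene that spans 120614654 to 120763567 just past En1. None was in a RefSeq promoter window of that gene. The En1 domain is longer than most, with 5.33% of genes having a longer one. At least 5 Tbx4 summits were found in 1.16% of all genes and in 13.2% of the 1168 genes with a domain at least as long. A long noncoding RNA called Maenli is known to activate En1 in the limb. The gene table does not carry that name, so no summit was set against it.

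No Hoxc10 summit lay in the En1 domain. The nearest was 787 kb past the gene, at 121395108, between Insig2 and Ccdc93, and scored 5.69. A Tbx4 summit of 3.67 lay 1054 bp from it, at 121394054, outside the distance used for co-bound pairs. On the other side the nearest Hoxc10 summit was 1549 kb from En1, inside Gli2. Of the 253 genes with 5 or more Tbx4 summits, 15% had no Hoxc10 summit and 36.8% no co-bound pair. Of the 1168 genes with domains as long as that of En1 or longer, 38.6% had a Hoxc10 summit. The 5 Tbx4 summits of En1 were 433 to 769 kb from the nearest Hoxc10 summit, against 34.4 to 124.6 kb for those of Lmx1b.

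Wnt7a stood in a stretch without summits. It spans 91363981 to 91411353 of chromosome 6 on the minus strand, with a domain of 192 kb between Chchd4 upstream and Fbln2 downstream. The nearest Tbx4 summits were at 91549740, 138 kb upstream with a score of 4.46, and at 91044782, 319 kb downstream with a score of 2.94, inside Nup210. Both lay beyond neighbouring genes. The nearest Hoxc10 summits were 2256 kb upstream and 2864 kb downstream. Neither factor had a summit in 81% of all genes, so that a count of 0 is the common one. Of the 4895 genes with domains at least as long as that of Wnt7a, 41.8% had a Tbx4 summit, 23.3% a Hoxc10 summit and 54.1% neither.

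**Figure D3:**
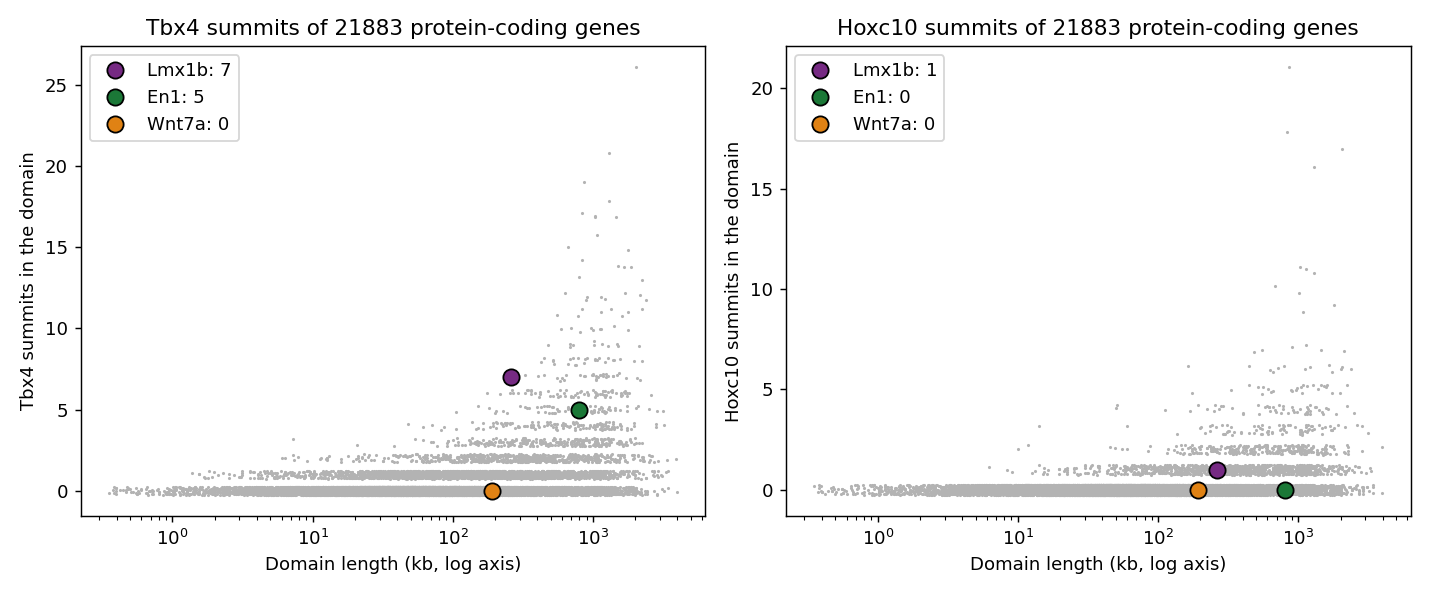
Summits per domain (vertical axis) against domain length in kb (log axis) for 21883 protein-coding genes, Tbx4 on the left and Hoxc10 on the right. Grey points are genes, moved up or down slightly so that they can be told apart. Lmx1b, with 7 Tbx4 summits in 261 kb, lies at the short end of the genes with 7 or more. Wnt7a lies at 0 in both panels.

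The names of the summits say more about the gaps. Each name carries the running number that MACS2 gave the peak, and the numbers rise with position on every chromosome of both lists. Numbers missing from a list stand for peaks that were numbered but are not among the summits used here. Over the Tbx4 list the highest number was 45103, so that 10.6% of the numbers were listed. This reading was chosen after the values were seen.

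Around Wnt7a the flanking Tbx4 summits, 505 kb apart, had the numbers 32865 and 32866. No other Tbx4 peak was therefore numbered between them, before the selection of the list. There were 1318 gaps of at least that length between neighbouring Tbx4 summits, with a median of 13 unlisted numbers each, and 3.19% of them had none. By this definition the gap around Wnt7a is the shortest of the set. Longer gaps have more room for numbers, so these values do not describe gaps of like length, which were not compared. For Hoxc10, 2 unlisted numbers fell in the 5167 kb between the summits on either side of Wnt7a.

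At Lmx1b most numbered Tbx4 peaks were listed. The 6 summits from 33544495 to 33701472 carry the consecutive numbers 20763 to 20768. In the 964 kb between the summits that flank the domain there were 9 numbers, 7 listed and 2 not. Over the whole Tbx4 list there were 1.83 numbers per 100 kb, so numbers were sparse in this interval. The unlisted number 20769 falls between the upstream summits at 33701472 and 33719525, inside the domain. On chromosome 2 as a whole 13.7% of the numbers were listed, and 44.8% of steps between neighbouring listed summits were consecutive. A domain with 7 listed summits has a high listed share in part through that count. Other domains with as many listed summits were not compared in this way. Around En1 the flanking summits, 1338 kb apart, enclosed 21 numbers, 5 of them listed. The unlisted number 2115 falls between the summits at 120659790 and 120727673, inside the domain. The 3 summits from 120727673 to 120962130 have the consecutive numbers 2116 to 2118, so that no other peak was numbered between them. For Hoxc10, 1 unlisted number fell between the summits that flank En1, 2341 kb apart. The Hoxc10 summits that flank the Lmx1b domain are 9399 kb apart and enclosed 7 numbers, 1 of them listed.

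**Figure D4:**
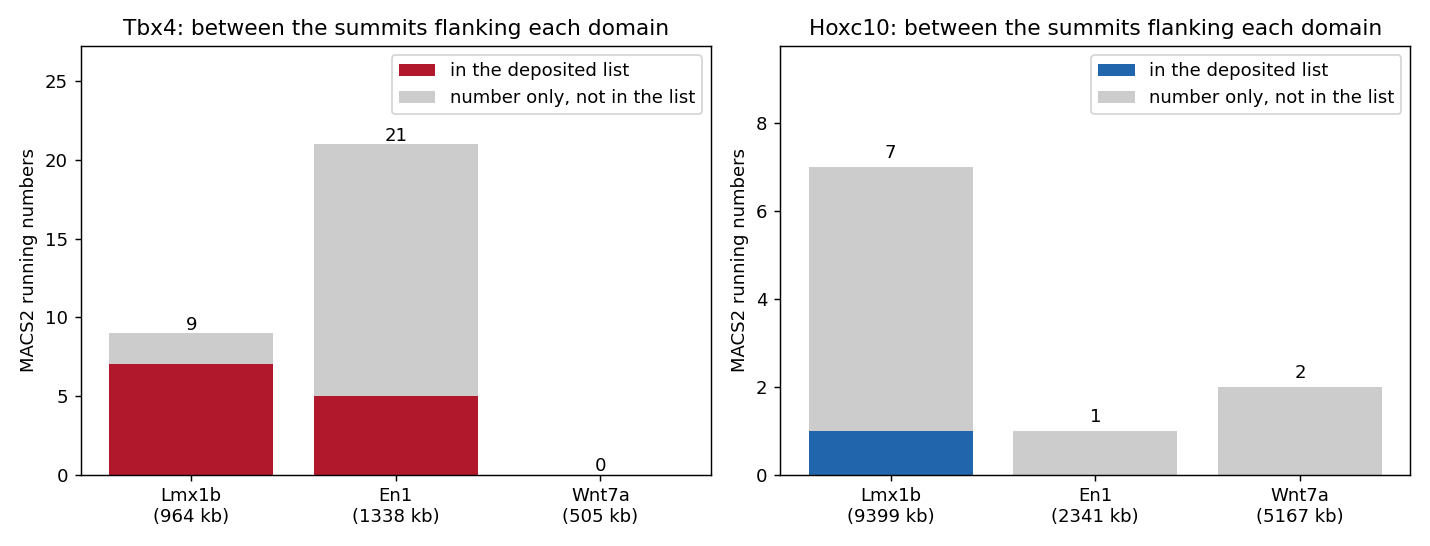
MACS2 running numbers between the summits that flank each domain, for Tbx4 (left) and Hoxc10 (right). Coloured bars count the numbers in the deposited list and grey bars those that are not, with the total above and the length of the interval in kb below each bar. Around Wnt7a there is no Tbx4 number, and at Lmx1b 7 of 9 are listed.

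The neighbours share most of these summits. Mvb12b, a subunit of the ESCRT-I sorting complex, had 8 Tbx4 summits in its domain, 3 of which are the upstream summits of Lmx1b. These 3 lie closer to Mvb12b than to Lmx1b, and go to Mvb12b when each summit is given to its nearest gene only. Zbtb43, a zinc finger gene, had 3 Tbx4 summits, all of them the downstream summits of Lmx1b. Insig2, a regulator of sterol synthesis, had 6 Tbx4 summits and 1 Hoxc10 summit, and 5 of the 6 are those of En1. The summit at 120962130 lies closer to Insig2 than to En1. With each summit given to its nearest gene only, En1 had 4. Marco had 0 of either factor, as had Fbln2 and Chchd4 beside Wnt7a.

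Beyond Mvb12b, both factors met. A Tbx4 summit of 6.19 at 33920210 and a Hoxc10 summit of 5.69 at 33920511 lay 301 bp apart, 279 kb upstream of Lmx1b. A co-bound pair 95 bp apart was inside Pbx3, which encodes a partner of Hox proteins, at 34229819 for Tbx4 (score 4.46) and 34229724 for Hoxc10 (score 6.34). It is 589 kb from Lmx1b and is the only pair within 200 bp that lies within 1 Mb of any of the 3 genes. Over the whole lists 10.9% of Tbx4 and 32.1% of Hoxc10 summits had such a partner.

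Other genes of the dorsoventral circuit were read from lists chosen for their known roles, 38 genes in all. The lists were drawn up with earlier results of these data known, so the shares below only describe them and are no independent support. Of these 19 had a Tbx4 summit, or 50%, against 17.2% of all protein-coding genes, and 10 had a Hoxc10 summit, or 26.3%, against 6.83%. A co-bound pair was found at 9, and over all genes in 2.66%. The listed genes have long domains, with a median of 265 kb against 67.3 kb. Of the 3708 genes with domains of 261 kb or more, 47% had a Tbx4 summit and 27.3% a Hoxc10 summit. The list is not matched to these genes for length, since it also holds shorter domains, down to 45.2 kb at Porcn. Whether the list differs from genes of like length was not tested. No share of co-bound pairs over long domains was taken. With domains of up to 100 kb, 3 of the 38 genes had a Hoxc10 summit. The median over the list was 0.5 Tbx4 summits and 0 Hoxc10 summits, and both medians were 0 over all genes.

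Of the 3 paralogues 2 had a Tbx4 summit, against 17.2% of all protein-coding genes. Their median domain was 232 kb, against 67.3 kb over all genes. Genes with any Tbx4 summit had a median of 1. Lmx1a and En2 had 1 Tbx4 summit each, with scores of 6.19 and 2.94, and Wnt7b had 0. None of the 3 had a Hoxc10 summit. Among 7 genes of the BMP signal that induces En1, the ligands were the ones with summits. Bmp4 had 5 Tbx4 and 2 Hoxc10 summits, both Hoxc10 summits co-bound. Bmp2 had 4 and 2, and Bmp7 had 3 and 0. The receptor gene Bmpr1a and the transducers Smad1, Smad5 and Smad4 had 0 of either. The ligand genes also had the longest domains, 1551 kb at Bmp2, 1102 kb at Bmp4 and 419 kb at Bmp7. Domains without a summit ran from 107 kb at Bmpr1a to 343 kb at Smad1. Whether the split goes beyond domain length was not tested.

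In the Wnt pathway 4 of 8 genes had a Tbx4 summit and 2 a Hoxc10 summit, against 17.2% and 6.83% of all protein-coding genes. Wnt5a, a ligand of the distal mesenchyme, had 5 and 2, with 1 co-bound pair 125 bp apart. Lef1, a nuclear effector of the pathway, had 2 and 2, also with 1 pair. Ctnnb1, which encodes beta-catenin, had 2 and 0, and the co-receptor gene Lrp6 1 and 0. Wnt3, the ridge-inducing ligand, had 0 of either, as had Lrp5, Tcf7 and Porcn. Here too the counts went with domain length. Lef1 and Wnt5a had the longest domains of the 8, with 503 and 426 kb. Domains of the genes without a summit ran from 45.2 kb at Porcn to 132 kb at Lrp5.

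Of 8 ectoderm and ridge factors, Msx2 had 4 Tbx4 summits and 1 Hoxc10 summit, a pair 13 bp apart. The highest scores there were 24.83 for Tbx4 and 16.39 for Hoxc10. Dlx6, Sp8 and Msx1 had 1 and 0 each, and Trp63, Dlx5, Sp6 and Fgf8 had none. Among the LIM partners, which are cofactors or relatives of Lmx1b, Ldb2 had 3 Tbx4 and 4 Hoxc10 summits with 2 co-bound pairs. Lhx9 had 1 and 0, and Ldb1 and Lhx2 had none.

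The list of dorsal mesenchyme and axon choice held the most Hoxc10 summits, 12 over 7 genes, beside 16 Tbx4 summits. It also had the longest domains of the lists with more than 1 gene, with a median of 645 kb, and 38.6% of the genes with domains of 799 kb or more had a Hoxc10 summit. Epha4, a guidance receptor of motor axons entering the limb, had 6 and 3 with a pair 34 bp apart. Its ligand gene Efna5 had 5 and 5 with 2 pairs, the closer one 8 bp apart. Epha7 had 2 and 2, with a pair 95 bp apart. Dcn, which encodes the matrix proteoglycan decorin, had 3 and 2. Lum and Kera, proteoglycan genes next to Dcn, had none, and neither had the guidance ligand gene Ntn1. Shh, whose expression in the bud depends in part on Wnt7a, had 0 of either.

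**Figure D5:**
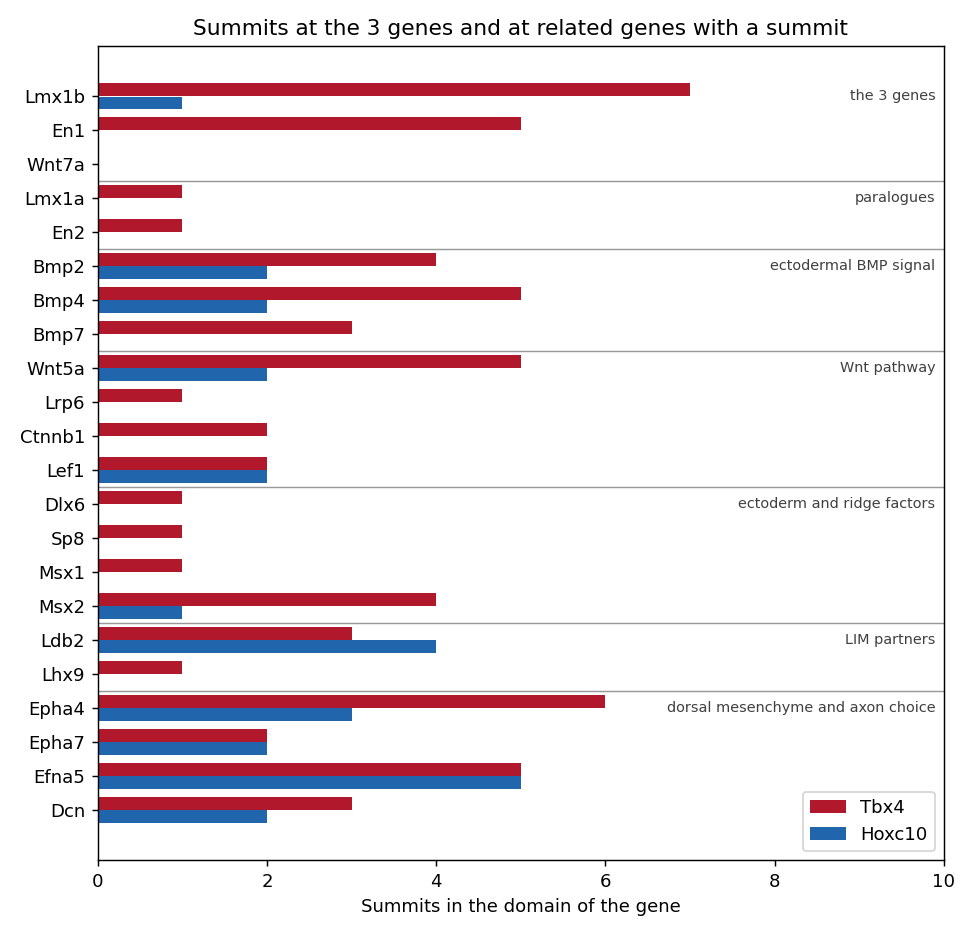
Tbx4 (red) and Hoxc10 (blue) summits in the domains of the 3 genes and of the 19 related genes with at least 1 summit, grouped by role. Bars show counts, and the 19 related genes without a summit are not drawn. En1 has 5 Tbx4 summits and no Hoxc10 summit, while Efna5 has 5 of each.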

How the data were processed

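The submitters' processing notes name Bowtie2 2.2.6, MACS2 2.1.1.20160309 and HOMER, and the build mm10. The deposited files list summits of 1 bp with the authors' MACS2 score, a −log10 value. The sources used here name neither the filters nor whether it is a p-value or a q-value. The name of the Hoxc10 list carries an abbreviation that no label explains and that may mean a selection against the Santa Cruz antibody. Positions are printed 1-based. Read depth is unknown, so no counting interval is given.

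Summits were counted per gene domain in Python 3.11.15 with pandas 2.3.3, for all 21883 protein-coding genes. Strand came from the RefSeq promoter table, which holds all 3 genes. A Hoxc10 summit with a Tbx4 summit within 200 bp counted as 1 co-bound pair. The counting was tried on simulated data. No statistical test was run, since each factor has 1 sample. Named were the 3 genes, their neighbours, and, from each list, the genes with a co-bound pair or the most summits. Others were named where a count needed them. The members and lists were chosen with earlier results of these data known.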

Additional observations from a re-analysis of the deposited data

How the results depend on the processing

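Of 52 alternative counts, 44 stayed within 1.5 times the reported one and 8 moved. Many of the 44 are counts of 0 that could not change, so the tally is no measure of how stable the results are. With the summits at or above the median score of their list, Lmx1b had 3 Tbx4 and 0 Hoxc10 summits. With windows of 500 kb on either side of the gene, neighbours ignored, Lmx1b had 12 Tbx4 and 2 Hoxc10 summits and Wnt7a had 2 Tbx4 summits. With each summit given to its nearest gene only, Lmx1b had 4 Tbx4 summits. With domains of up to 100 kb, En1 had 2 Tbx4 summits, and 3 of the related genes had a Hoxc10 summit in place of 10. These moves follow from fewer summits or from longer or shorter domains. The counts of 0 for Hoxc10 at En1 and Wnt7a stayed 0 in each setting, but only the windows of 500 kb could have raised them. The co-bound pairs of all 3 genes also stayed 0 at 50, 500 and 1000 bp. That outcome was fixed, since the En1 and Wnt7a domains hold no Hoxc10 summit. The Hoxc10 summit of Lmx1b is 34.4 kb from the nearest Tbx4 summit. No paired analysis was possible because each factor has 1 sample and no result comes from a test. A count of 0 in a peak list does not show that a region was unbound, since depth and thresholds are unknown.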
